A study of Mus musculus with 4 samples.

Results

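Cells sorted as progenitors from the mouse ventral telencephalon were compared between embryonic day E15.5 and E18.5 by single-cell RNA sequencing. The comparison held 4032 cells, 928 at E15.5 and 3104 at E18.5, of 6341 barcodes deposited in the series. Barcodes were kept with at least 1000 detected genes and at most 10% of unique molecular identifiers (UMIs, counts of single captured transcripts) from the mitochondrial genome. At E15.5 those above 30000 UMIs were also left out, since they may hold several cells.

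All embryos came from crosses of heterozygous Nestin-GFP with homozygous DCX-mRFP mice and carried both reporters, in which the progenitor gene nestin drives green and the young-neuron gene doublecortin drives red fluorescence. Cells sorted as green were taken as progenitors. The sorted cells also held RNA of neuronal genes such as doublecortin, given below, so they were not progenitors alone. A matching pair of libraries from the dorsal telencephalon (541 cells at E15.5, 1148 at E18.5) served to find changes seen in the ventral pair and not there. Each age and region was represented by 1 library. The sources used here do not give the number or sex of the embryos behind it. Age and library therefore cannot be told apart, and without replicates no test between ages was possible. Ratios are E18.5 over E15.5, and their intervals are 95% intervals that cover counting error only.

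The ganglionic eminences of the ventral telencephalon are the birthplace of GABAergic neurons: the medial eminence, marked by the transcription factor Nkx2-1, makes cortical interneurons and cholinergic neurons, and the lateral eminence, marked by Gsx2, makes striatal and olfactory bulb neurons. Dlx transcription factors drive the step from progenitor to GABAergic neuron in all of them. Towards birth the radial glia that line the ventricle turn from making neurons to making astrocytes, oligodendrocyte precursors and ependymal cells.

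The sample labels and the names of the deposited files give opposite regions for all 4 libraries. The libraries called ventral here are labelled cerebral cortex, and those called dorsal are labelled ganglionic eminence; the names follow the files. Levels are given as CPM (counts scaled to the same total in each library), the UMIs of a gene summed over the cells of a library and divided by the summed total, which leaves out mitochondrial, ribosomal protein and haemoglobin genes. Emx1, a transcription factor of the cortical ventricular zone, was at 0.594 CPM in the ventral E15.5 library and 1.23 in the ventral E18.5 library, against 263 and 38.1 in the dorsal E15.5 and E18.5 libraries. Nkx2-1 was at 266 and 115 CPM in the ventral pair and at 1.03 and 1.81 in the dorsal pair. Dlx2 was at 1217 and 769 CPM in the ventral pair and at 36.5 and 186 in the dorsal pair. These regional genes thus sided with the file names in every library. The dorsal E18.5 library held more Dlx RNA than the dorsal E15.5 library, and 22.2% of its cells against 4.25% met the Dlx count used below. Cell content and level per cell cannot be told apart in the dorsal ratios of GABAergic genes.

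**Figure D1:**
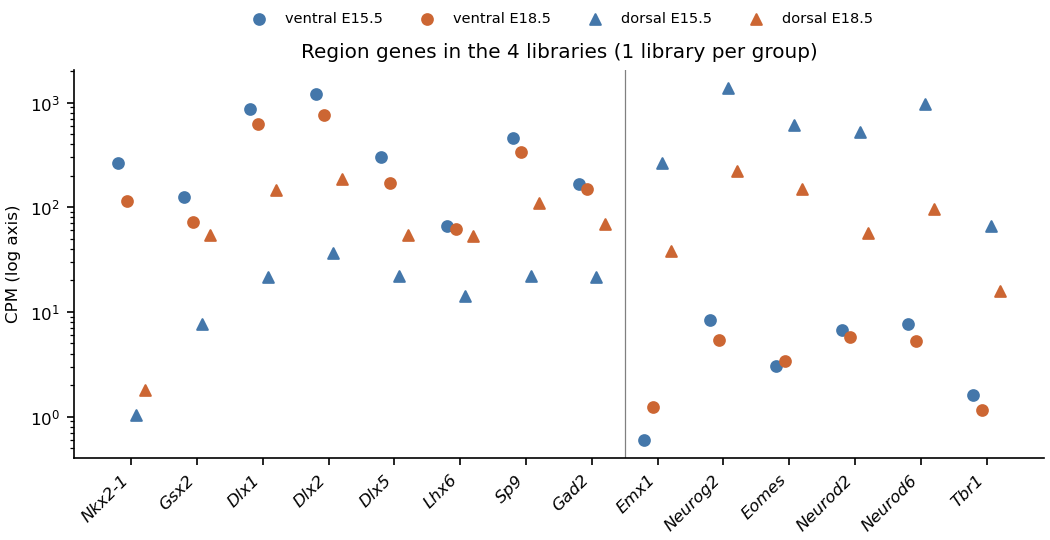
Level in CPM (log axis) of 8 ventral and 6 dorsal telencephalic genes in the 4 libraries, 1 point per library. The 6 dorsal genes, Emx1 to Tbr1, lie below 10 CPM in both ventral libraries, and Nkx2-1 lies below 2 CPM in both dorsal libraries.

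The kept ventral cells held 14910652 UMIs at E15.5 and 29257834 at E18.5, with medians of 14624.5 and 8799.5 per cell. No E15.5 cell had fewer than 10407 UMIs, while E18.5 cells went down to 2676, so the counts of ventral and gate genes called, and those of the gene lists, were also taken on cells with 10000 to 30000 UMIs. This range keeps every E15.5 cell and leaves out shallower E18.5 cells, so it changes the cells compared as well as their depth. The 2 ventral libraries shared 2 barcodes. Only barcodes holding cells of a male and a female should show at least 2 UMIs of Xist and 2 of Y-linked genes. Such barcodes made up 11.5% of the kept E15.5 cells and 2.32% of the E18.5 cells. Deeper barcodes meet this count more easily and mixes of 1 sex escape it, so the shares do not compare the ages. Above 30000 UMIs, 75.4% of the 240 E15.5 barcodes left out met it. So did 66.7% of the 21 E18.5 barcodes of that depth, which were kept. In the ventral libraries other cell types left little RNA. The summed lists of erythroid (10 genes), choroid plexus (10) and Cajal-Retzius cells (8) ran from 5.60 to 21.5 CPM, the endothelial list (12) stood at 33.8 and 48.2 CPM, the mural list (11) at 25.6 and 100.3, the fibroblast list (9) at 11.3 and 47.8 and the microglial list (12) at 63.1 and 55.0. Leaving out the 1 E15.5 and 9 E18.5 barcodes richest in vascular, blood, microglial or choroid plexus UMIs lost none of the 66 calls among 118 genes named by rule.

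A gene was measured if it reached 20 CPM in at least 1 library of a pair, and called higher or lower if its ratio was at least 2-fold with an interval that excludes 1. The ventral change was lopsided. Of 7309 genes measured, 340 were higher at E18.5 (4.65%) and 16 were lower (0.219%), and the median log2 ratio of all measured genes was 0.03. In the dorsal pair 662 of 7920 genes were higher (8.36%) and 199 lower (2.51%). Of the 340 genes higher in the ventral pair, 232 were also higher in the dorsal pair, 23 were below the minimum there and 1 was lower there. Of the 16 lower genes, 1 (Lmo1) was also lower in the dorsal pair and 7 were below the minimum there.

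**Figure D2:**
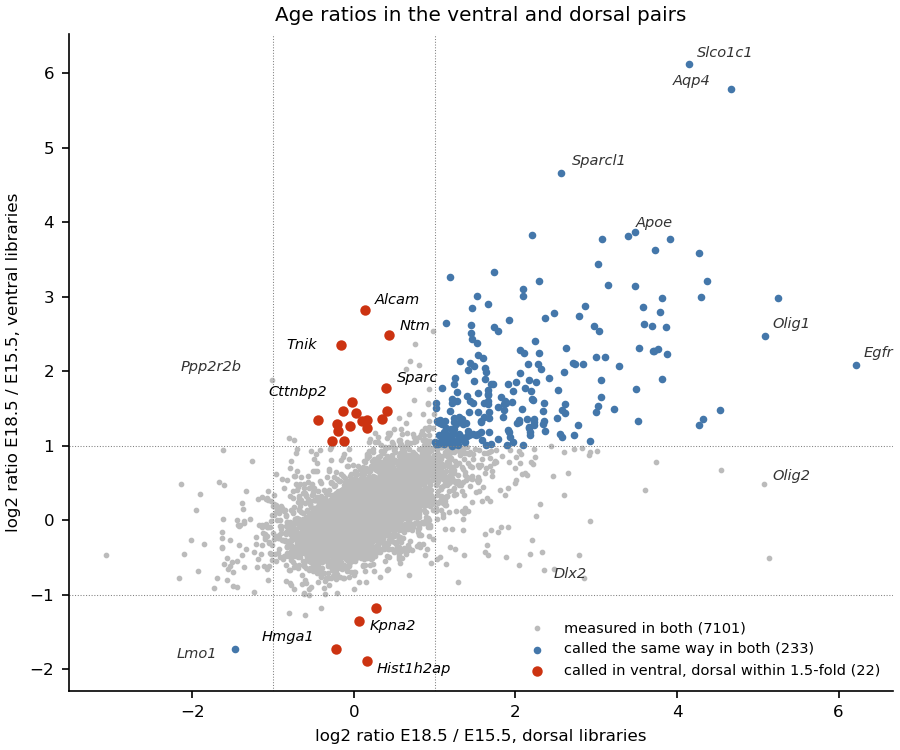
Log2 ratio of E18.5 to E15.5 in the dorsal (x axis) and ventral (y axis) libraries for the 7101 genes measured in both pairs, 1 point per gene. Blue points are the 233 genes called the same way in both pairs, and red points are the 22 called in the ventral pair with a dorsal ratio within 1.5-fold.

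Genes of astrocytes and late radial glia led the rise. Aqp4, the water channel of astrocyte end-feet, stood at 0.509 CPM at E15.5 and at 28.1 at E18.5, which is 55.2-fold (25.2 to 151). Slco1c1, a thyroid hormone transporter, went from 0.424 to 29.8 CPM, or 70.2-fold (29.9 to 217). Sparcl1, a secreted matrix protein of astrocytes, went from 6.11 to 154.8 CPM, or 25.3-fold (20.1 to 32.5). Each of these 3 was below 10 CPM in the E15.5 library. Apoe, the lipid carrier that astrocytes secrete, was already at 115 CPM at E15.5 and reached 1634, or 14.2-fold (13.4 to 14.95). The bicarbonate transporter Slc4a4 went from 3.39 to 49.8 CPM, the Na,K-ATPase regulator Fxyd1 from 1.10 to 29.6, the ectonucleotidase Entpd2 from 1.27 to 26.1 and the claudin Cldn10 from 1.10 to 20.4. Aqp4, Slco1c1, Sparcl1, Apoe and Slc4a4 were also called higher in the dorsal pair. Fxyd1, Entpd2 and Cldn10 stayed below 20 CPM there but had dorsal log2 ratios of 6.29, 5.51 and 2.98. The ratios of Fxyd1 and Entpd2 rest on very few UMIs in the dorsal E15.5 library, so their size is uncertain.

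**Figure D3:**
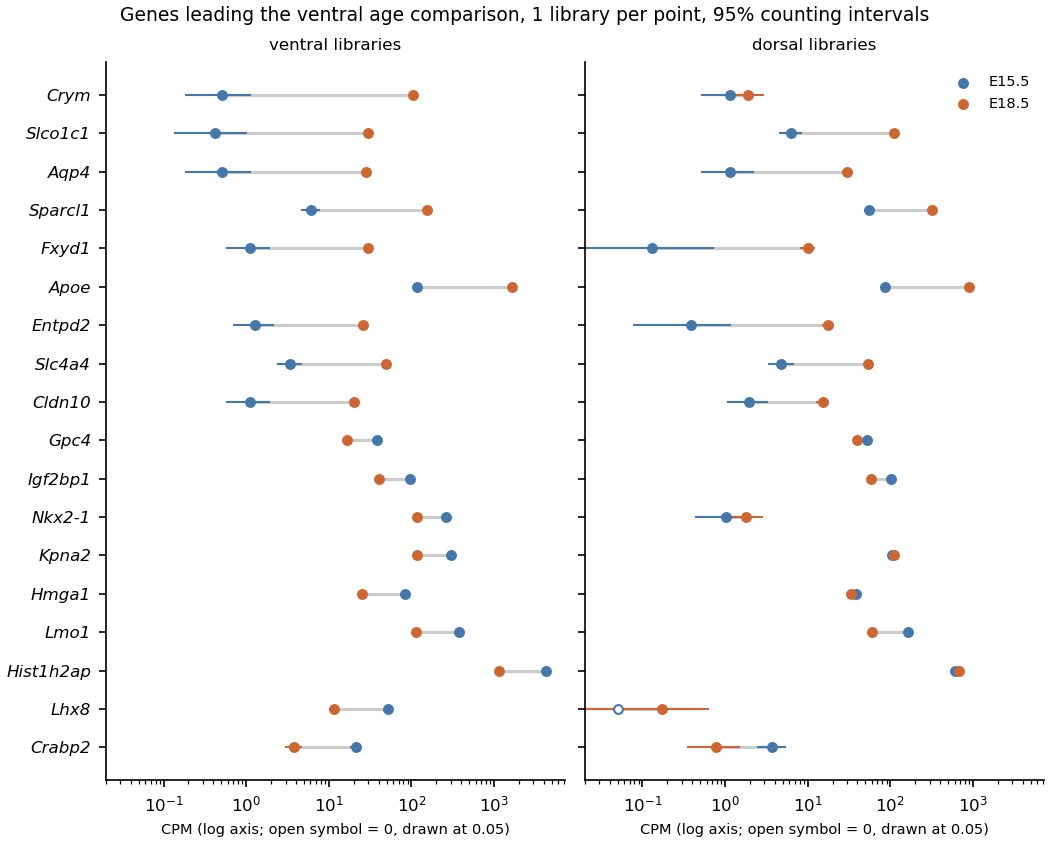
CPM (log axis) at E15.5 and E18.5 in the ventral (left) and dorsal (right) libraries for 18 genes that lead the ventral comparison, 9 in each direction, ranked by the end of the 95% counting interval nearest to no change. Crym changes far more on the left than on the right, and Lhx8 and Nkx2-1 are near 0 on the right.

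Across the astrocyte list 24 of 29 measured members were higher and none lower, with a median log2 ratio of 2.36, against 22 of 29 and 2.06 in the dorsal pair. Members low at E15.5, such as Aqp4, Slco1c1 and Sparcl1, were measured only through the E18.5 library. This count and median therefore lean towards higher members. Among the measured members not called were the gliogenic transcription factors Nfia (177 to 327 CPM), Nfib (464 to 695) and Nfix (210 to 409), all of them well expressed at E15.5. Gfap, the intermediate filament of mature astrocytes, was at 0 at E15.5 and at 2.89 CPM at E18.5, below the minimum. Of the 22 members of the extracellular matrix list 11 were measured, and 10 of these were higher, with a median of 2.61. They include the proteoglycan Bcan (17.8 to 129 CPM), the protease inhibitor Timp3 (8.74 to 60.1) and tenascin C, Tnc (10.8 to 67.0), a matrix protein of the germinal zone. These 3 were below 20 CPM at E15.5 and were measured only through the E18.5 library. The count and median thus lean towards higher members. The radial glia and Notch list had 8 of 22 higher and none lower, with a median of 0.81: the lipid-binding protein Fabp7 went from 1714 to 6083 CPM and the glutamate transporter Slc1a3 from 116 to 566. Nestin (Nes), whose promoter drives the sorted reporter, was at 78.5 and 93.2 CPM and was not called.

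Olig1, Olig2 and Egfr had smaller ratios in the ventral than in the dorsal pair. Olig1, a transcription factor of oligodendrocyte precursors, was at 59.6 CPM in the ventral E15.5 library and 330 in the E18.5 library, or 5.54-fold (5.13 to 5.99). In the dorsal libraries it was at 35.8 and 1213, and the ventral minus the dorsal log2 ratio was -2.61 (-2.82 to -2.41). Olig2, its neighbour on chromosome 16, was already at 146 CPM in the ventral E15.5 library and reached 204, which was not called, while the dorsal levels were 14.3 and 483. Of the oligodendrocyte list 5 of 8 measured members were higher (median log2 ratio 1.31), against 13 of 14 (4.07) in the dorsal pair. A member low at E15.5 is measured only through E18.5, so counts of this list lean towards higher members in both pairs. On cells with 10000 to 30000 UMIs the ventral count was 3 of 7. Egfr, the epidermal growth factor receptor, was at 15.4 and 65.2 CPM in the ventral libraries and at 1.55 and 115 in the dorsal ones, a ventral log2 ratio of 2.09 against a dorsal one of 6.21. Spry2, an inhibitor of growth factor signalling, went from 15.3 to 65.2 CPM and the transcription factor Etv5 from 14.7 to 39.5, with dorsal log2 ratios of 2.83 and 0.86. Of the FGF, EGF and ERK list 4 of 10 measured members were higher and none lower. Egfr, Spry2 and Etv5 were measured only through the ventral E18.5 library, so this count leans towards higher members too.

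The smaller signalling lists are read against the 4.65% of all measured genes that were higher. Of the BMP and ID list 3 of 6 measured members were higher: Id1 (39.6 to 89.9 CPM), Id2 (52.9 to 112) and Id3 (42.2 to 207), which hold back neuronal differentiation. Id2 was called in 5 of 9 settings, with a log2 ratio of 0.79 on cells with 10000 to 30000 UMIs, and was not called in the dorsal pair (-0.74). Of the Wnt list 3 of 10 were higher, among them the pathway's feedback target Axin2 (10.9 to 24.3 CPM), called in 6 of 9 settings. In the Hedgehog list 1 of 4 was higher, the co-receptor Gas1 (65.3 to 142), which was not called with TMM scaling (log2 ratio 0.98), and the receptor and target Ptch1 was not called at 27.1 and 41.8. Cholesterol synthesis had 2 of 18 higher (median 0.64), and 2 of 8 immediate early genes, Fos (22.8 to 85.4 CPM) and Egr1 (22.7 to 82.5), were higher; dissociation of tissue can also induce them. None of these lists had a lower member. Counts of 1 or 2 members are too few to set a list apart from that share.

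Crym had the largest ratio of all genes measured in the ventral pair. It encodes mu-crystallin, which binds thyroid hormone in the cytosol, and lies on chromosome 7 (GRCm38, 120186380 to 120202111, minus strand). Its level was 0.509 CPM in the ventral E15.5 library and 103 in the ventral E18.5 library, or 203-fold (93.2 to 554). In the dorsal libraries it was at 1.16 and 1.90 CPM. The ventral E18.5 library alone was high. The log2 ratio of ratios between the pairs was 6.96 (5.35 to 8.57). Crym is below the minimum in the dorsal pair, which is why it does not enter the counts of ventral but not dorsal genes below.

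To see where such changes lay, cells were thinned to 4000 UMIs each and split in 2 ranges. The Dlx gate took cells with at least 3 UMIs of Dlx1, Dlx2, Dlx5 and Dlx6os1. The glial gate took cells under that number with at least 5 UMIs of Fabp7, Slc1a3, Ptprz1 and Ttyh1. A gate is a range of marker counts and not a cell type, and its 4 genes are not reported within it. At E15.5 801 of 928 cells fell in the Dlx gate (86.3%, 83.9 to 88.5) and 88 in the glial gate (9.48%, 7.67 to 11.6). At E18.5 the numbers were 1838 of 2818 (65.2%, 63.4 to 67.0) and 835 (29.6%, 27.9 to 31.4), with 286 cells too shallow to place. Within 1 UMI of the cut were 65 and 212 cells for the Dlx gate and 12 and 54 for the glial gate. The larger glial share at E18.5 is that of 1 library against 1. The gate genes themselves were higher at E18.5 over all cells, and the median of their summed UMIs within the glial gate was 21.5 at E15.5 and 50 at E18.5, so more cells and more of these UMIs per cell cannot be told apart in this share. Of 183 genes higher in the ventral pair and measured in both gates, 126 were at least 2-fold higher in the glial than in the Dlx gate at E18.5 (6.85% of all 6638 genes measured in both).

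The Crym UMIs at E18.5 lay mostly in the glial gate. Of glial gate cells 164 of 835 had a Crym UMI (19.6%, 17.0 to 22.5), against 1 of 88 at E15.5 (1.14%, 0.0288 to 6.17). In the Dlx gate the counts were 39 of 1838 (2.12%) and 0 of 801, a limit of 0.375% at 3 counts and of 0.459% by the exact interval. Without thinning the glial gate shares were 24.3% and 3.41%, at median depths of 9100 and 14816.5 UMIs. In CPM the glial gate went from 3.64 to 312 and the Dlx gate from 0.195 to 16.01. The Dlx gate thus held 5.12% of the glial gate level at E18.5, close to the 7.12% of Aqp4 and the 6.45% of Slco1c1. The part of free RNA and of barcodes holding mixed cells in these low Dlx gate levels was not tested. In the dorsal glial gate 2 of 794 cells had a Crym UMI at E18.5 (0.252%, 0.0305 to 0.907).

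The 164 glial gate cells with a Crym UMI after thinning were set beside the 671 without, a split chosen after the values were seen and made within 1 library. Without thinning 24.3% of the gate held a Crym UMI, so some of the 671 cells carried Crym RNA too. Apoe was at 8874 CPM in the 164 cells and 3157 in the 671, and the glutamate transporter Slc1a2 at 470 and 228. In the other direction Olig1 was at 82.9 against 1059 CPM, Pdgfra, the receptor that marks oligodendrocyte precursors, at 2.14 against 75.2, Egfr at 20.01 against 134 and the proliferation marker Mki67 at 56.5 against 190. Sparcl1 was lower too, at 231 against 478 CPM. The Crym cells thus held more Apoe and Slc1a2 RNA, and less Olig1, Pdgfra and Egfr RNA, than the rest of the gate.

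Among the genes that were lower at E18.5 were regulators of the medial eminence. Lhx8, the transcription factor of ventral cholinergic neurons, stood at 52.3 CPM at E15.5 and 11.6 at E18.5, 4.49-fold lower (3.89 to 5.20). Nkx2-1 went from 266 to 115 CPM, 2.30-fold lower (2.19 to 2.43). Neither was above 2 CPM in a dorsal library. Isl1, a factor of cholinergic and striatal neurons, was at 36.4 and 18.3 CPM, a log2 ratio of -0.99 that misses a call. It was called lower in 5 of 9 settings, with -1.76 on cells with 10000 to 30000 UMIs. Lhx6, the factor of cortical interneurons downstream of Nkx2-1, was at 66.4 and 62.4 CPM, but on cells with 10000 to 30000 UMIs its log2 ratio was -1.05 instead of -0.09. Of 8 measured members of the medial eminence list 2 were lower and 1 (Tle4) higher, with a median of -0.26. On cells with 10000 to 30000 UMIs 4 of 8 were lower, with a median of -0.74.

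Cells with an Lhx8 UMI made up 75 of 801 in the Dlx gate at E15.5 (9.36%, 7.44 to 11.6) and 70 of 1838 at E18.5 (3.81%, 2.98 to 4.79), or 18.2% and 5.50% without thinning. In the glial gate they were 1 of 88 and 2 of 835. For Nkx2-1 the shares in the Dlx gate were 31.8% (28.6 to 35.2) and 20.02% (18.2 to 21.9), and in the glial gate 9.09% and 4.91%. Without thinning they were 43.2% and 23.9% in the Dlx gate, at median depths of 14671 and 9397.5 UMIs. Within the Dlx gate Lhx8 was lower (60.0 to 16.9 CPM) while Nkx2-1 was not called (294 to 159, log2 ratio -0.89), although it was lower on cells with 10000 to 30000 UMIs (-1.12). Fewer cells of a type and less RNA per cell cannot be told apart in these sums.

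Genes of GABAergic cells as a whole gave no call in the ventral pair. None of 13 Dlx and GABA genes was called, with a median log2 ratio of -0.42, while 11 of 11 measured were higher in the dorsal pair. Dlx2 was at 1217 and 769 CPM, Dlx5 at 301 and 170, and the GABA-synthesising enzyme Gad2 was at 165 and 150. Within the Dlx gate Gad2 was at 183 and 207 CPM. On cells with 10000 to 30000 UMIs 2 of the 13 were lower, with a median of -0.63. None of 13 interneuron genes was called either, but their direction depended on the cells used. Their median log2 ratio was 0.31 over all cells and 0.43 with cells thinned to 4000 UMIs. On cells with 10000 to 30000 UMIs it was -0.35. The neuropeptide gene Npy was at 123 and 209 CPM, a log2 ratio of 0.76 that turned to -0.49 on cells with 10000 to 30000 UMIs. The neuregulin receptor Erbb4 was at 15.9 and 30.9 CPM, with 0.96 and -0.05 in the same 2 settings. With thinned cells 3 of the 13 were higher, and with the mean over cells 4. Among 10 measured genes of the lateral eminence and striatum Ebf1 alone was higher, at 10.0 and 22.1 CPM. That call turned round on other cells: with E15.5 barcodes above 30000 UMIs kept its log2 ratio was -0.01 and on cells with 10000 to 30000 UMIs -0.64, instead of 1.15. Gsx2 was at 124 and 72.9 CPM. The list of neuron differentiation had no call among 18 genes. Its median was 0.00 over all cells, 0.22 with thinned cells and -0.45 on cells with 10000 to 30000 UMIs. Doublecortin (Dcx) was at 170 and 209 CPM, a log2 ratio of 0.29 that turned to -0.43 on those cells.

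Part of the early temporal list, genes high in young progenitors, fell. Crabp2, a retinoic acid carrier, was at 21.2 CPM at E15.5 and 3.78 at E18.5, 5.61-fold lower (4.38 to 7.22). Lmo1, a LIM-only cofactor, was at 378 and 114 CPM, 3.33-fold lower (3.17 to 3.49), and its dorsal levels were 166 and 59.9. Igf2bp1, an RNA-binding protein of embryonic progenitors, went from 95.9 to 40.5 CPM and the glypican Gpc4, which is outside the list, from 37.8 to 16.7. Their dorsal log2 ratios were -0.80 and -0.41, short of a call, and Gpc4 was no longer called with E15.5 barcodes above 30000 UMIs kept (-0.91). Of the early temporal list 4 of 13 measured members were lower and none higher, with a median of -0.78, against 2 lower and 2 higher of 13 in the dorsal pair. Crabp2 was measured only through the ventral E15.5 library, so the ventral count leans towards lower members. At a minimum of 50 CPM it was 3 of 9. Hmga2, a chromatin protein of young stem cells, was at only 4.33 and 2.42 CPM.

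Members of the early temporal list were also lower within each range of cells. In the Dlx gate 19 of 6969 genes were lower (0.273%), and 8 of them were among the 12 measured members of the early temporal list, whose median was -1.17. Lmo1 went from 413 to 135 CPM, the nuclear receptor Nr2f1 from 283 to 115, Igf2bp1 from 96.6 to 44.3, Igf2bp2 from 24.6 to 9.82 and Crabp2 from 23.1 to 4.71. In the glial gate 5 of 13 were lower, with a median of -0.83, and Hmga2, measured there, went from 21.8 to 5.36 CPM. On cells with 10000 to 30000 UMIs the counts remained at 8 of 12 and 5 of 13. Crabp2 and Igf2bp2 in the Dlx gate and Hmga2 in the glial gate were measured only through E15.5, so these counts lean towards lower members. At a minimum of 50 CPM they were 5 of 9 and 4 of 12. The list was chosen with earlier results of these data known, so its counts are given as a description. In the whole libraries Nr2f1 missed a call at 289 and 147 CPM, but was called lower in 5 of 9 settings.

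**Figure D4:**
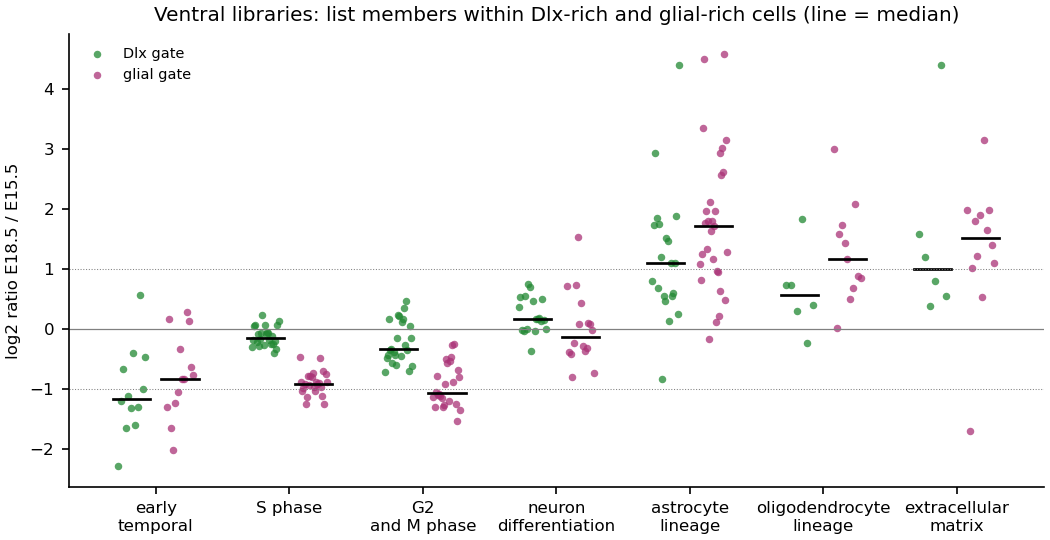
Log2 ratio of E18.5 to E15.5 for the measured members of 7 gene lists in the Dlx gate and in the glial gate of the ventral libraries, 1 point per gene, the bar marking the median and dotted lines 2-fold. The early temporal list has medians of -1.17 and -0.83, and the astrocyte list medians of 1.09 and 1.71.

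Some genes fell in the Dlx gate and not in the whole libraries, and were named after their values were seen. Hes5, the Notch effector that keeps progenitors undifferentiated, went from 166 to 70.7 CPM in the Dlx gate (log2 ratio -1.23), was at 845 and 916 in the glial gate, and at 241 and 323 over all cells. The ratio over all cells was therefore positive while that within Dlx-rich cells was below -1. Dlk1, a relative of the Notch ligands, went from 32.05 to 13.9 CPM in the Dlx gate and from 86.3 to 34.8 in the glial gate, called lower in both. The 16 ventral lower genes were called on these same cells, so their counts within the gates are given as a description. In the Dlx gate 11 of 16 were lower, against 0.273% of all genes measured there. In the glial gate 10 of 11 measured were lower, against 2.09%.

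Genes higher in the Dlx gate numbered 93 of 6969 (1.33%). Of the 80 measured in both gates, 22 had a Dlx gate level at E18.5 of at most 20% of that in the glial gate, and 43 a level of at least 50%. The first kind includes Apoe, at 59.3 and 450 CPM in the Dlx gate, 10.3% of the glial level, and Sparcl1 at 1.86 and 38.9, 9.12%. The part of free RNA and of mixed barcodes in these rises was not tested: 98 Dlx gate cells at E15.5 and 382 at E18.5 also met the count of glial UMIs. The second kind, named after the values were seen, includes the actin regulator Pfn1 (47.5 to 212 CPM), the mRNA export factor Alyref (69.3 to 353), the linker histone gene Hist1h1e (75.9 to 311) and the kit ligand Kitl (11.1 to 44.3). These 4 were also higher in the glial gate and in the dorsal pair. The small GTPase gene Arl4d, from 22.5 to 95.4 CPM in the Dlx gate, was below the minimum in the glial gate at 1.82 and 6.55. Its level was thus higher in the Dlx gate than in the glial gate at both ages, with only 88 glial gate cells at E15.5.

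In the glial gate 646 of 7755 genes were higher (8.33%) and 162 lower (2.09%), with only 88 cells at E15.5. The astrocyte list had 21 of 29 higher with a median of 1.71 in this gate. The gate does not hold glial content constant, since the median summed UMIs of its genes was 21.5 at E15.5 and 50 at E18.5. More RNA per cell and a shift of cells within the gate cannot be told apart in this rise. Slc1a2 went from 34.5 to 279 CPM and the gap junction gene Gja1 from 42.7 to 184. Olig2 was at 285 and 403 CPM there and was not called. Sparc was at 327 and 474 CPM in the glial gate and at 16.1 and 27.9 in the Dlx gate, called in neither, although it was called over all cells. Of the 21 members of the ependymal and cilium list only 7 were measured there. Of these 5 were higher (median 1.99), and their regulator Foxj1 was not, at 23.6 and 44.2 CPM. A member low at E15.5 is measured only if it reached 20 CPM at E18.5, so this count and that of the astrocyte list lean towards higher members.

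The neurogenic factor Neurog2 went from 69.1 to 6.10 CPM in the glial gate and Eomes, of cortical intermediate progenitors, from 22.7 to 2.23. Both are dorsal genes. Neither was called once 14 E15.5 and 26 E18.5 barcodes with at least 3 UMIs of 6 dorsal genes were left out, a filter that counts these 2 genes themselves. Cell cycle genes were lower in the glial gate, 13 of 24 of the G2 and M phase list (median -1.07) and 6 of 24 of the S phase list (-0.92). On cells with 10000 to 30000 UMIs these counts were 0 and 2, with medians of -0.49 and -0.66. That range kept all 88 glial gate cells at E15.5 but 340 of 835 at E18.5. Why the G2 and M phase calls were not found there was not tested. Mki67 was at 193 and 162 CPM in the glial gate. Over all ventral cells it was at 239 and 275, with a log2 ratio of 0.20 that became -0.12 with thinned cells and 0.68 on cells with 10000 to 30000 UMIs. Of the G2 and M phase list 1 of 24 was lower over all cells, 7 with thinned cells, 11 with the mean over cells, 4 with TMM scaling and 0 on cells with 10000 to 30000 UMIs. Of the S phase list none of 24 was lower, and 1 with the mean over cells.

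Changes seen in the ventral pair but not in the dorsal pair were defined by a ventral call, a dorsal ratio within 1.5-fold and a ratio of ratios of at least 2-fold with an interval excluding 1. Higher genes of this kind numbered 18 (0.246% of the genes measured in the ventral pair) and lower genes 4 (0.0547%). The dorsal libraries are labelled ganglionic eminence and are taken as dorsal from the file names, as above. RNA of other cell types also differed between the dorsal E15.5 and E18.5 libraries. The endothelial list went from 437 to 131 CPM, the microglial from 226 to 15.7 and the erythroid from 1866 to 8.54. The mural, fibroblast, choroid plexus and Cajal-Retzius lists went up, the mural from 162 to 243. Barcodes rich in vascular, blood, microglial or choroid plexus UMIs numbered 17 of 541 and 15 of 1148. Without such barcodes 15 of the 18 higher and all 4 lower genes remained.

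The first of the 18 by size of change was Alcam. This immunoglobulin-type adhesion molecule (chromosome 16, 52248996 to 52454074, minus strand) was at 4.41 and 31.2 CPM in the ventral E15.5 and E18.5 libraries, or 7.06-fold (5.33 to 9.55), and at 76.1 and 83.6 in the dorsal ones. Ntm, a membrane-anchored adhesion molecule of neurites, was at 6.87 and 38.7 against 41.3 and 56.0. Tnik, a kinase that acts on the cytoskeleton and on Wnt targets, was at 6.19 and 31.8 against 134 and 120. In all 3 the ventral E15.5 library was the low one and the other 3 libraries were higher. The cortactin-binding protein gene Cttnbp2 (12.9 and 38.6 against 115 and 113), Limch1, an actomyosin regulator (12.6 and 34.6 against 115 and 106), and the actin-associated Pdlim4 (31.0 and 79.1 against 103 and 75.7) likewise had their lowest level in the ventral E15.5 library.

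Sparc, a secreted matrix protein, was at 47.3 and 161 CPM in the ventral pair, 3.41-fold (3.12 to 3.73), and at 172 and 227 in the dorsal pair. This difference between the pairs depended on the E15.5 barcodes above 30000 UMIs: with them kept, the dorsal log2 ratio was 1.12 instead of 0.40. The prion protein gene Prnp (23.2 and 59.9 against 71.9 and 91.3) met the definition in only 3 of 9 settings tried. The Na,K-ATPase partner Nkain4 (43.3 and 109 against 74.0 and 79.6), the phospholipid-remodelling Lpcat3 (10.0 and 27.8 against 24.02 and 31.8), the glyoxylate reductase Grhpr (7.97 and 21.7 against 26.7 and 27.2) and the PI3-kinase inhibitor Pik3ip1 (14.5 and 36.7 against 44.2 and 49.2) complete the leading 12. The other 6, by size of change, were Pam, Aig1, Ppp1r1a, Prex1, Dab1 and Ccpg1os, the last of which may share reads with Ccpg1. Alcam, Tnik, Cttnbp2, Limch1, Nkain4 and Ppp1r1a met the definition in all 9 settings.

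**Figure D5:**
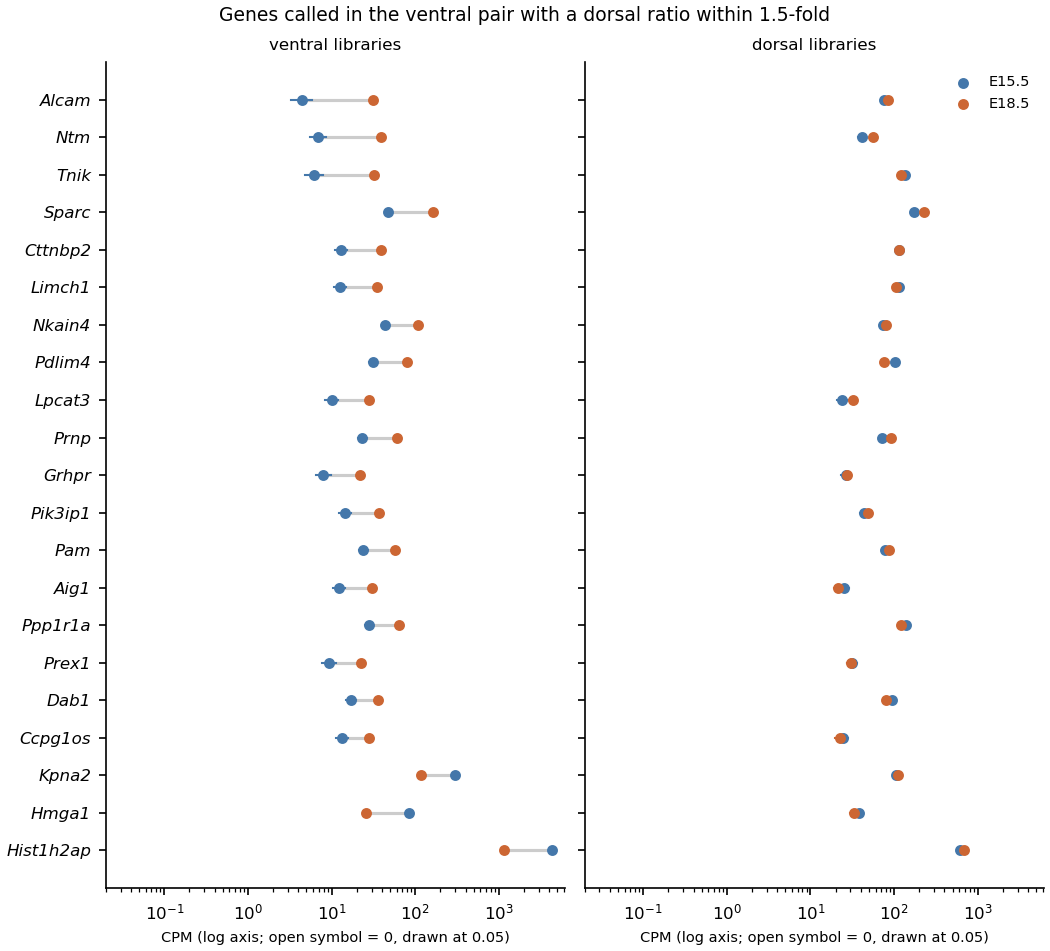
CPM (log axis) at E15.5 and E18.5 in ventral (left) and dorsal (right) libraries for 21 genes, of which 18 were higher and 3 lower in the ventral pair with a dorsal ratio within 1.5-fold. Grey lines join the ages and coloured lines are 95% counting intervals. In all 18 the ventral E15.5 level is below the dorsal E15.5 level.

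The low E15.5 level of the 18 genes in the ventral library is part of how they were chosen, so their levels across regions are given as a description. All 18 were higher in the dorsal than in the ventral library at E15.5, 16 of them at least 2-fold, where 266 of 7101 genes measured in both pairs were (3.75%). At E18.5 5 of the 18 were still at least 2-fold higher in the dorsal library. The gates divide cells of the same ventral libraries that chose the 18, so counts within them are also a description. In the glial gate all 18 were measured and 11 were higher, against 8.33% of all genes measured there. Alcam, among the 11, was at 19.1 and 82.3 CPM. In the Dlx gate 7 were measured and 2 were higher, against 1.33% of all genes. These were Pam at 24.8 and 58.7 CPM and Pik3ip1 at 13.1 and 29.4.

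The lower genes of this kind include Hist1h2ap, Hmga1 and Kpna2. Hmga1, an architectural chromatin protein of stem cells (chromosome 17, 27556497 to 27563674), was at 84.5 and 25.5 CPM in the ventral pair, 3.31-fold lower (2.99 to 3.67), and at 38.4 and 33.02 in the dorsal pair. It was lower in both gates, at 85.1 and 26.9 in the Dlx gate and 73.6 and 23.4 in the glial gate. Kpna2, an importin of dividing cells, was at 298 and 117 CPM against 106 and 111 in the dorsal pair, and was not called on cells with 10000 to 30000 UMIs (log2 ratio -0.78 instead of -1.36). The histone gene Hist1h2ap was at 4257 and 1149 CPM against 611 and 681. These 3 were highest in the ventral E15.5 library and lower in both gates. Hist1h2ap has near-identical copies elsewhere in the genome, so its reads may have been assigned among copies and its values are uncertain.

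A further 23 higher and 7 lower genes of the ventral pair were below the minimum in the dorsal pair, a set drawn up after the values were seen. Crym is among them. The flavin monooxygenase gene Fmo1 (3.65 and 23.3 CPM in the ventral pair) and the alcohol dehydrogenase Adhfe1 (4.24 and 30.3) had dorsal levels of 0.258 and 17.2 and of 0.904 and 17.8, so below the minimum does not mean without a change. The glutathione transferase Gsta4 was at 5.51 and 20.4 CPM against 11.8 and 13.2 in the dorsal pair. Lower genes of this kind, beside Crabp2, Lhx8 and Nkx2-1, include Asb4 (52.7 and 24.95 CPM), Depdc7 (23.8 and 10.97) and Arhgef39 (29.7 and 14.8).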

How the data were processed

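The 4 samples were profiled with 10x droplet libraries. The deposited values are raw UMI counts per gene and barcode, made by the authors with Cell Ranger 1.3.1 on mm10, per the submitters' processing notes, which also name Seurat. Counts were summed over kept cells and given as CPM after leaving out 13 mitochondrial, 102 ribosomal protein and 10 haemoglobin genes. Ratios have exact conditional binomial intervals, CPM exact Poisson and shares exact Clopper-Pearson intervals. PCR copies are removed by the UMIs. No doublet caller was run: mixed barcodes were handled only by the limit of 30000 UMIs at E15.5. The call rule was tried on simulated counts with Poisson error only. These hold no spread between cells or libraries, so they cannot show how such spread affects the calls. The members, the gene lists and the naming rule (10 leading genes in each direction, 12 in each direction of ventral but not dorsal genes, up to 4 in each list, and 18 fixed genes) were chosen with earlier results of these data known. Alternatives changed the cells, the scaling, the minimum, the fold and the gates. The list used to leave out other cell types omits Cspg4, Notch3 and Slc2a1, a choice made after seeing the data. Positions are from GENCODE M21 on GRCm38. Python 3.11.15, numpy 2.4.6, scipy 1.17.1 and pandas 2.3.3 were used, and R 4.3.3 with edgeR 4.0.16 for TMM factors. Some genes that the rule names are not reported here or drawn by name.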

Additional observations from a re-analysis of the deposited data

Results flagged for a closer look

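Ppp2r2b, a regulatory subunit of protein phosphatase 2A in neurons, changed in opposite directions in the ventral and dorsal pairs. It was at 20.4 CPM at E15.5 and 75.3 at E18.5 in the ventral libraries (log2 ratio 1.89), and at 350 and 174 in the dorsal ones (-1.01), a difference of 2.90 in the log2 ratio. With 1 library a group the difference was not tested. In the ventral glial gate it went from 87.3 to 210 CPM, and in the Dlx gate it was at 13.8 and 16.5.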

How the results depend on the processing

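The count of ventral genes lower at E18.5 (16) was 29 with E15.5 barcodes above 30000 UMIs kept, 26 with all deposited barcodes, 28 on cells with 10000 to 30000 UMIs, 54 with cells thinned to 4000 UMIs, 69 with the mean over cells of CPM and 40 with TMM scaling, which shifts the ventral log2 ratios by -0.14. Between 12 and 16 of the 16 genes stayed lower in these settings. Ventral but not dorsal genes that were higher (18) numbered 39 with thinned cells and 30 with the mean over cells. A minimum of 50 CPM, which tests fewer genes, left 144 higher ventral genes, 6 of the ventral but not dorsal kind, 40 higher and 11 lower in the Dlx gate and 282 and 107 in the glial gate. With no minimum beyond 3 UMIs the ventral counts were 1848 higher and 151 lower, and 182 and 13 of the ventral but not dorsal kind. At 3-fold they were 138 and 5, and 4 and 2, with 28 and 5 in the Dlx gate and 220 and 20 in the glial gate. Lower genes in the glial gate (162) were 253 with gate minimums raised 2 times and 89 on cells with 10000 to 30000 UMIs. The log2 ratio of Ebf1 (1.15) reversed to -0.0067 with deep E15.5 barcodes kept, -0.0091 with all barcodes and -0.6415 on cells with 10000 to 30000 UMIs. Apart from the stricter or absent minimum and fold, the cause was not tested. Of 66 called genes named by rule, 55 to 66 stayed called across 9 settings. No paired analysis was possible because each group has 1 library.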

Other observations

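A set of 18 genes was higher at E18.5 in the ventral pair, the dorsal pair and both ventral gates, with gate levels within 2-fold of each other at E18.5. They were chosen after the values were seen. Pfn1 went from 49.4 to 239 CPM in the ventral pair and from 34.9 to 453 in the dorsal pair, Alyref from 67.4 to 309 and from 40.9 to 352, and Kitl from 10.3 to 38.5 and from 6.07 to 85.7. Fos, Egr1 and Apc are also among the 18. Age and sequencing library cannot be told apart for such genes.

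Lhx2, a transcription factor of the telencephalic ventricular zone, was at 457 CPM in ventral E18.5 glial gate cells with a Crym UMI after thinning. In those without it was at 231, and Gsx2 was at 19.3 and 75.4. Nkx2-1 was at 43.6 and 19.5 CPM, and the cortical gene Emx1 at 1.43 and 2.63. The GABA receptor subunit gene Gabrb1 was at 131 and 37.8 CPM, and the ependymal regulator Foxj1 at 70.05 and 37.4. Gfap stayed low in both, at 4.29 and 7.52 CPM.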
